A study of Mus musculus with 2 samples.

Results

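The Slc25 genes encode the mitochondrial carrier family, and they were taken here as every gene of the deposited count table named Slc25a followed by a number. Of 32286 genes in the table, 47 had such a name and 42 of these reached 20 UMIs (unique molecular identifiers, each standing for 1 captured RNA molecule) over both libraries. The 5 below that minimum were Slc25a2 with 6 UMIs, Slc25a31 with 11, Slc25a35 with 15, Slc25a41 with 2 and Slc25a54 with 0. Single-nucleus 3' RNA libraries had been made from 2 regenerating mouse livers, 1 labelled wild-type and 1 labelled Cox10-/-, so neither genotype had a replicate and no group test was made.

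Cox10 encodes an enzyme that makes heme A for cytochrome c oxidase. According to the labels, mice that carried a floxed Cox10 allele received AAV8-GFP or AAV8-Cre once through the retroorbital sinus, and a 70% partial hepatectomy followed after 4 weeks. Both genotypes shared the floxed allele, a virus and the operation. The labels do not say which virus each animal received, although Cre is the agent that recombines the floxed allele. AAV8 reaches mainly hepatocytes in liver, so Cre delivered this way acts chiefly in them. The protocol places dissection 4 days after hepatectomy, whereas the sample characteristics give 4 weeks, and this discrepancy could not be settled. The labels also do not name the floxed exon. Cox10 itself stood at 35.7 CPM (UMIs of a gene scaled to a common total) in the hepatocyte-like nuclei of wild-type and at 43.7 CPM in those of Cox10-/-, a ratio of 1.22 (95% interval 1.01 to 1.49). It was thus not lower in the library labelled Cox10-/-. Whether the counted 3' tags lie inside the deleted part is not known, so this value cannot check the deletion in either direction.

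Mitochondrial carriers are membrane proteins built from repeated helical pairs, and nearly all sit in the inner mitochondrial membrane. They exchange nucleotides, phosphate, amino acids, carboxylates and cofactors between the cytosol and the matrix. In liver they feed the urea cycle, gluconeogenesis, fatty acid oxidation and the supply of citrate for lipid synthesis.

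After filtering, 1542 of 5448 wild-type and 3128 of 5167 Cox10-/- nuclei remained, or 28.3% and 60.5%. Apart from 13 doublets removed in Cox10-/-, the loss came from the limit of 10% on mitochondrially encoded UMIs. The wild-type nuclei used in the main comparison are thus a minority with low shares, and the filter acted unequally on the libraries. Of the nuclei that remained, 1502 wild-type nuclei (7120311 UMIs) and 1169 Cox10-/- nuclei (4167829 UMIs) lay in clusters called hepatocyte-like from marker genes. The Cox10-/- library also held 835 endothelial-like, 616 stellate-like and 268 myeloid-like nuclei, against 25, 2 and 3 in wild-type. Hepatocyte-like nuclei of the 2 genotypes fell almost entirely into different clusters: 769, 570 and 155 wild-type nuclei in clusters 0, 1 and 2, and 631, 454 and 66 Cox10-/- nuclei in clusters 3, 4 and 15. Cluster 4 had no wild-type nucleus, a median of 1128.5 UMIs against 4359 in the other Cox10-/- hepatocyte-like nuclei, and Saa1, Lrg1, Cyp3a11 and Saa2 as leading genes. Cytoplasmic ribosomal protein genes took 1.65% of its UMIs against 0.415% in the others. It is called the shallow cluster below, and results are given with and without it. The libraries shared 7 barcode sequences.

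Promoters are shown for 4 members: Slc25a15, Slc25a39 and Slc25a47, which were more than 3-fold higher in Cox10-/- hepatocyte-like nuclei, and Slc25a30, the one member called lower. Each is the 250 bases before a RefSeq start site (GRCm38.p6), written 5′ to 3′ on the gene's strand, with capitals marking CG dinucleotides. Slc25a15 has 2 annotated starts and the downstream one is shown, at chr8:22398278-22398527 on the minus strand. The Slc25a39 window is chr11:102407518-102407767 on the minus strand, the Slc25a47 window is chr12:108850879-108851128 on the plus strand and the Slc25a30 window is chr14:75787038-75787287 on the minus strand. The Slc25a15, Slc25a39 and Slc25a47 windows lie inside the annotated gene spans given below, so they are not sequence outside the gene. Only the Slc25a30 window lies outside its gene span.
Slc25a15: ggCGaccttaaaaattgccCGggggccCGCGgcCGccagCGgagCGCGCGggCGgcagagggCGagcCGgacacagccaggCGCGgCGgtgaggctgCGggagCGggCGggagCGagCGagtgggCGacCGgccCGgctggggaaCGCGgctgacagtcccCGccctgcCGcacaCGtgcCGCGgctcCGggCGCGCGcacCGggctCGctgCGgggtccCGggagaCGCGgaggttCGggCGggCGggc
Slc25a39: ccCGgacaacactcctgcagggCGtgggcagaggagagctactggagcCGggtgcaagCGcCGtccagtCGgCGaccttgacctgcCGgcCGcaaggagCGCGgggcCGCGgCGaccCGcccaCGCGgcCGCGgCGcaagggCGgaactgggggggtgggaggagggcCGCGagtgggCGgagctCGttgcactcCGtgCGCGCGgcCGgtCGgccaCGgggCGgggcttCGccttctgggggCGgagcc
Slc25a47: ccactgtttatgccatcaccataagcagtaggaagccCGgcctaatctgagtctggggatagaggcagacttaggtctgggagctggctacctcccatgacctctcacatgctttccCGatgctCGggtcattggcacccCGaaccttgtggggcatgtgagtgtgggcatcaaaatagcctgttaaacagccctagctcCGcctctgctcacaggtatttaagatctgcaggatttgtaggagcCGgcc
Slc25a30: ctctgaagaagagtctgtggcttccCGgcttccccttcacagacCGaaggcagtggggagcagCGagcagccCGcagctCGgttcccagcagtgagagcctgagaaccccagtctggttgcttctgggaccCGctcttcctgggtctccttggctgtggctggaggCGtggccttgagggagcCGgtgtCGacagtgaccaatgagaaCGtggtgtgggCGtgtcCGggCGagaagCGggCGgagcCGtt

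The Slc25a15 window held 43 CG dinucleotides, the Slc25a39 window 35, the Slc25a47 window 6 and the Slc25a30 window 16. Over the 44 windows of the 34 members with a RefSeq promoter entry the median was 11.5, and over all 32851 promoters of the same length it was 6. The window of the other annotated Slc25a15 start held 11. CG dinucleotides were chosen for display after the motif search below had found few matches. Both strands were searched for 5 motifs. CCGGAAGT, bound by GABPA, lay in 1 member window (Slc25a20) and in 2.88% of all promoters, and TATAAA in the windows of 2 members (Slc25a18 and Slc25a21) and in 12.4% of all. The NRF1 motif (a palindrome of alternating G and C around a central CATG), the HNF4A motif CAAAGTCCA and the ATF4 composite motif TGATGNAA had 0 matches in the 44 windows, and were in 0.782%, 0.384% and 3.45% of all promoters.

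The first comparison asked how each carrier differed between Cox10-/- and wild-type hepatocyte-like nuclei. UMIs were summed over nuclei, and a member was called when its CPM differed at least 2-fold with the whole 95% interval beyond 1.5-fold. The intervals cover counting error only, not the spread between animals. Of 42 members, 38 had at least 20 UMIs over both sums, and 5 were called higher (Slc25a15, Slc25a39, Slc25a47, Slc25a5 and Slc25a22) and 1 lower (Slc25a30). Among all 11450 genes measured the same way, 7.61% were called higher and 3.28% lower. The member median was a log2 ratio of -0.04, against -0.03 over all genes, and 18 of 38 ratios were above 1. Without the shallow cluster the same 5 and 1 of 37 members were called, with backgrounds of 5.06% and 3.02%.

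**Figure D1:**
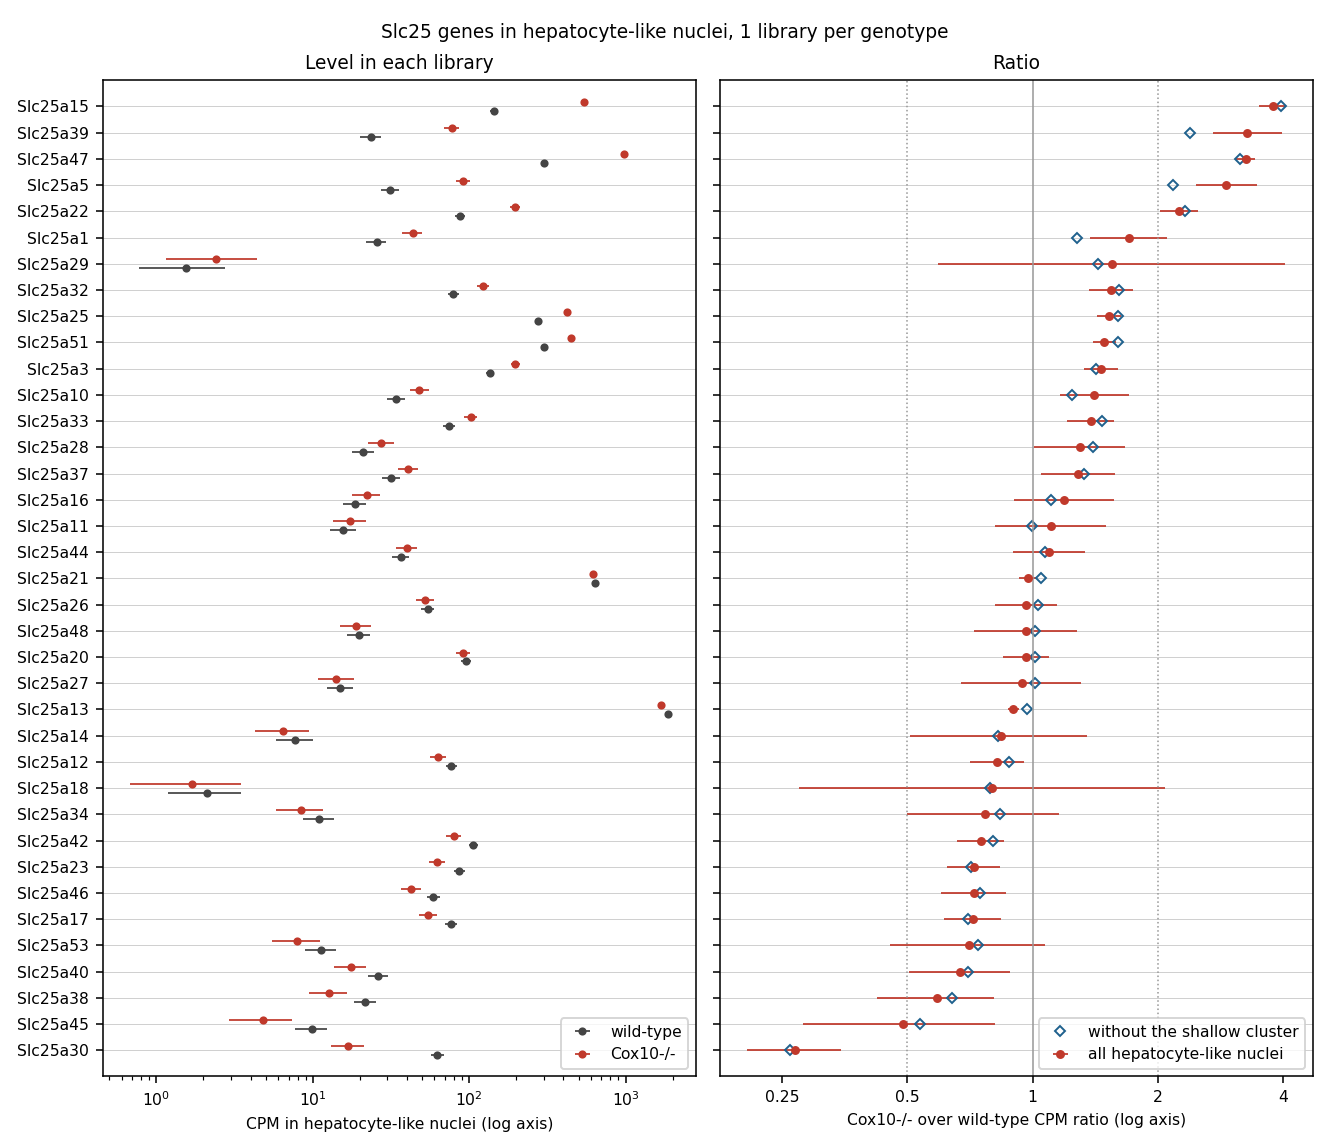
Levels (left, CPM on a log axis, exact Poisson 95% intervals) and Cox10-/- over wild-type ratios (right, log axis, 95% intervals, with open diamonds for the ratio without the shallow cluster) of 37 of the 38 members measured in hepatocyte-like nuclei. Slc25a15 stands highest at 3.77 and Slc25a30 lowest at 0.27, and dotted lines mark 2-fold.

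Amino acid and ornithine carriers included the largest ratio. Slc25a15 (ENSMUSG00000031482.9, chr8:22375551-22398597, minus strand, mm10) exchanges ornithine for citrulline across the inner membrane and so links the mitochondrial and cytosolic steps of the urea cycle. It was at 144 CPM (135.5 to 153) in wild-type and 544 CPM (522 to 567) in Cox10-/-, a ratio of 3.77 (3.502 to 4.06). Without the shallow cluster the ratio was 3.95. Wild-type clusters 0, 1 and 2 held 134, 151 and 162 CPM, and Cox10-/- clusters 3, 4 and 15 held 583, 379 and 492 CPM. Each of these clusters came almost wholly from 1 library, so they are not replicates. How many other genes separate them in the same way was not counted.

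Slc25a22 (ENSMUSG00000019082.18, chr7:141429744-141437892, minus strand), a carrier of glutamate with protons, was at 87.4 CPM in wild-type and 196 CPM in Cox10-/-, a ratio of 2.25 (2.02 to 2.498). Its clusters ran from 73.4 to 116 CPM in wild-type and from 151 to 312 CPM in Cox10-/-. With all deposited nuclei, high mitochondrial shares included, its ratio was 1.996, just under the limit, and it was not called. The other glutamate carrier, Slc25a18, was hardly detected, with 15 and 7 UMIs.

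The remaining amino acid carriers were not called. Slc25a13, the liver aspartate/glutamate carrier citrin, stood at 1866 and 1677 CPM in wild-type and Cox10-/-, a ratio of 0.899 (0.873 to 0.926). Slc25a12, the second aspartate/glutamate carrier, had a ratio of 0.823 (0.708 to 0.955). Slc25a44, which carries branched-chain amino acids, had 1.10 and the glycine carrier Slc25a38 had 0.588 (0.422 to 0.808). The basic amino acid carrier Slc25a29 had only 11 and 10 UMIs. Within the group of 8 members 2 were called higher and none lower, where 7.61% and 3.28% of all genes were.

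Among adenine nucleotide and phosphate carriers, Slc25a5 (ENSMUSG00000016319.3, chrX:36795651-36798807, plus strand), the ADP/ATP exchanger also called ANT2, was at 31.2 CPM in wild-type and 90.9 CPM in Cox10-/-, a ratio of 2.92 (2.46 to 3.46). This gene rested more on the shallow cluster, where it reached 242 CPM against 67.6 CPM in the other Cox10-/- hepatocyte-like nuclei, and without that cluster its ratio was 2.17 (1.80 to 2.61). Ribosomal protein genes moved with it: 68 of 80 were called higher, and 31 of 80 without the shallow cluster, and their part in the Slc25a5 ratio was not tested. Slc25a5 also has processed pseudogenes of nearly the same sequence, so its count is uncertain where reads could be split. With all deposited nuclei and no shallow cluster the ratio fell to 1.63 and was not called.

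The phosphate carrier Slc25a3 had a ratio of 1.46 (1.33 to 1.60). Of the calcium-regulated ATP-Mg/phosphate carriers, Slc25a25 was at 275.1 and 420 CPM, a ratio of 1.53 (1.43 to 1.63), and was not called, while Slc25a23 had a ratio of 0.722 (0.622 to 0.836). Slc25a4, the ADP/ATP exchanger typical of muscle and heart, and Slc25a24 had at most 4 UMIs in either hepatocyte sum and were not measured, and neither were Slc25a36 and Slc25a43.

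Slc25a39 (ENSMUSG00000018677.9, chr11:102402985-102407946, minus strand), which imports glutathione into the matrix, was at 23.6 CPM in wild-type and 77.3 CPM in Cox10-/-, a ratio of 3.27 (2.71 to 3.97). As for Slc25a5, the shallow cluster stood apart, at 214 CPM against 56.2 CPM elsewhere, and the ratio without it was 2.38 (1.93 to 2.94). It was 1.80, and not called, with all deposited nuclei and no shallow cluster. Its close relative Slc25a40 pointed the other way at 0.671 (0.504 to 0.883), not called. The iron importers mitoferrin 1 (Slc25a37) and mitoferrin 2 (Slc25a28) had ratios of 1.29 and 1.30.

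Slc25a47 (ENSMUSG00000048856.9, chr12:108836046-108856815, plus strand) is a carrier found mainly in liver, and its substrate is not named here. It was at 299 CPM (287 to 312) in wild-type and 972 CPM (943 to 1003) in Cox10-/-, a ratio of 3.25 (3.08 to 3.42). Its wild-type clusters lay between 285 and 314 CPM and its Cox10-/- clusters between 831 and 1175 CPM. Without the shallow cluster the ratio was 3.14. Its annotated span holds the microRNA gene Mir345 on the same strand, which was not analysed here.

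Slc25a30 (ENSMUSG00000022003.7, chr14:75760117-75787037, minus strand), a relative of the uncoupling proteins, was the only member called lower. It stood at 62.5 CPM (56.8 to 68.6) in wild-type and 16.8 CPM (13.1 to 21.2) in Cox10-/-, 3.72-fold lower (2.89 to 4.86). Wild-type clusters lay between 60.5 and 76.0 CPM and Cox10-/- clusters between 14.6 and 31.8 CPM. The size of this fold turned on 1 unnamed cluster with 90 Cox10-/- nuclei, led by Areg and Nrg1, that missed the hepatocyte-like limit by 1 marker. In that cluster Slc25a30 was at 159.5 CPM (125 to 201). Counting it as hepatocyte-like, an alternative chosen after seeing the data, made Slc25a30 2.05-fold lower (1.69 to 2.49), which still met the limit.

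**Figure D2:**
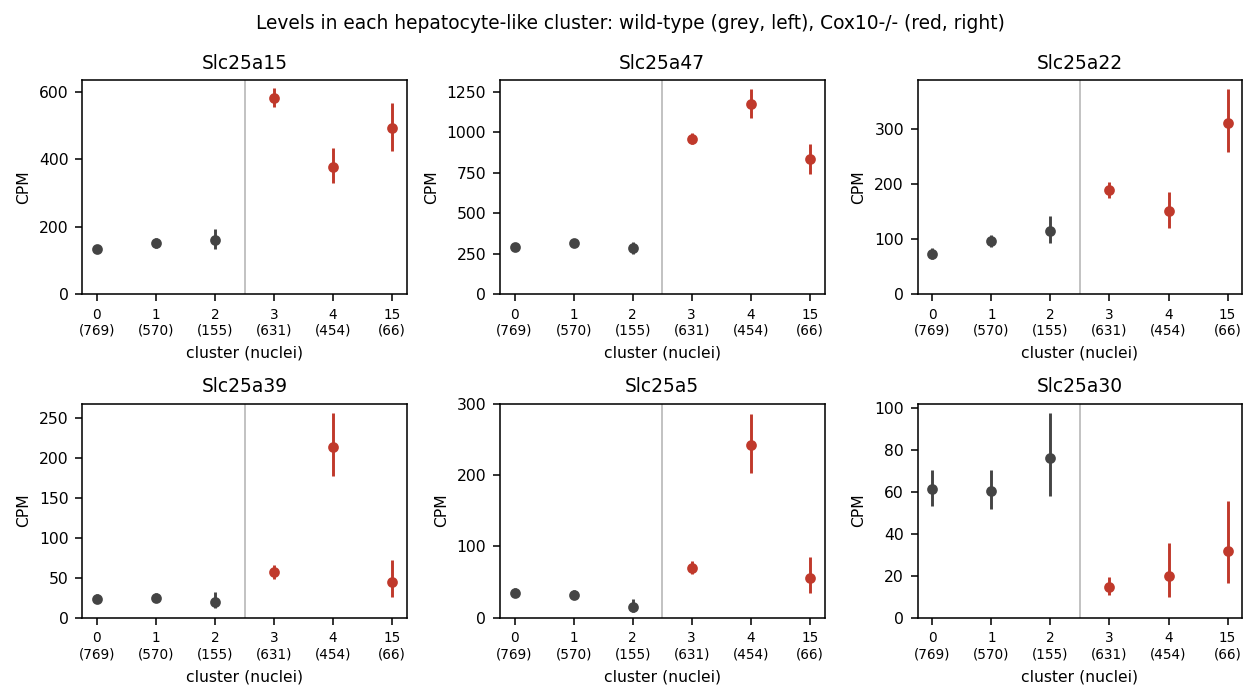
CPM of the 6 called members in each hepatocyte-like cluster with at least 50 nuclei (nuclei in parentheses; bars are exact Poisson 95% intervals). Clusters 0, 1 and 2 are wild-type and 3, 4 and 15 Cox10-/-, and for Slc25a5 and Slc25a39 the shallow cluster 4 stands far above clusters 3 and 15.

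The other uncoupling-protein-like members, Slc25a14 and Slc25a27, had ratios of 0.839 and 0.942 with intervals that included 1. The citrate carrier Slc25a1 had a ratio of 1.70 (1.38 to 2.10), which was 1.28 (1.01 to 1.62) without the shallow cluster, and that cluster alone held 113 CPM. With the mean over nuclei the Slc25a1 ratio was 2.39 and the gene was called higher. The dicarboxylate carrier Slc25a10 had 1.41, the oxoglutarate/malate carrier Slc25a11 had 1.11 and the oxodicarboxylate carrier Slc25a21, which serves lysine and tryptophan breakdown, had 0.974 (0.928 to 1.02). Slc25a20, which exchanges carnitine for acylcarnitines in fatty acid oxidation, was at 95.5 and 91.9 CPM, a ratio of 0.962 (0.847 to 1.09). With UMIs summed over nuclei, no member of these 3 groups besides Slc25a30 was called (7.61% of all genes were called higher and 3.28% lower).

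None of 8 measured cofactor and pyrimidine nucleotide carriers was called, where 7.61% of all genes were called higher and 3.28% lower. With so few members, a count of 0 is near those shares. The NAD carrier Slc25a51 was at 301.5 CPM in wild-type and 448 CPM in Cox10-/-, a ratio of 1.49 (1.40 to 1.58). The folate carrier Slc25a32 had 1.54 (1.36 to 1.74) and the pyrimidine nucleotide carrier Slc25a33 had 1.38 (1.21 to 1.57). In the other direction stood the coenzyme A carrier Slc25a42 at 0.751 (0.658 to 0.855) and the peroxisomal carrier Slc25a17 at 0.717 (0.612 to 0.839). Slc25a16 and Slc25a26 had intervals that included 1. Of members given no substrate here, Slc25a46, a protein of the outer membrane, had 0.722 and Slc25a45 had 0.488 on 70 and 20 UMIs, neither called. Slc25a34, Slc25a48 and Slc25a53 lay between 0.705 and 0.964 with intervals that included 1.

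Lists of other mitochondrial genes gave a measure of how far these values were shared. Among all genes measured, 7.61% were called higher and 3.28% lower, or 5.06% and 3.02% without the shallow cluster. Of 20 measured mitochondrial transporters that are not Slc25 genes, 0 were called higher and 0 lower, with a median log2 ratio of -0.05. Without the shallow cluster 1 (Micu2) was called higher. Those with most UMIs, Cpt1a, Sfxn1 and Slc8b1, had ratios of 0.799, 1.13 and 1.09. Of 15 genes for the machinery that imports and inserts carriers, 4 were called higher (Tomm6, Tomm7, Timm8a1 and Timm13, named after their values were seen). The median of the 15 was a log2 ratio of 0.59, and 3 were called higher without the shallow cluster. Ribosomal protein genes also stood higher (68 of 80 called), and their part in these values was not tested. Of 13 mitochondrially encoded genes, 7 were called lower and 0 higher, and 9 were called lower without the shallow cluster. The nuclei had been filtered on the share of UMIs from these same genes, so their counts depend on that filter.

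The share of mitochondrially encoded UMIs differed between the libraries, with medians over hepatocyte-like nuclei of 7.85% (wild-type) and 5.68% (Cox10-/-), or 3.41% (Cox10-/-) without the shallow cluster. Genotype ratios were therefore recomputed within 3 bands of that share over all deposited hepatocyte-like nuclei without the shallow cluster, an alternative chosen after seeing the data. From 0 to 5% (90 wild-type and 513 Cox10-/- nuclei), 5 to 10% (1406 and 183) and 10 to 20% (3702 and 97), Slc25a15 had ratios of 3.86, 3.61 and 4.31. Slc25a47 had 3.28, 3.24 and 2.997, and both genes were called in all 3 bands. Slc25a22 had 1.96, 2.56 and 2.01, and missed the call in the lowest band. Slc25a39 (2.23, 3.16 and 1.66) and Slc25a5 (3.65, 2.63 and 1.42) varied more. Neither was called from 10 to 20%, and from 0 to 5% Slc25a39 was not called either. Slc25a30 was 4.20-fold, 3.49-fold and 2.33-fold lower, and was not called in the highest band. Slc25a32, not called over all nuclei, was called higher from 0 to 5%, at 2.11 (1.54 to 2.95), and it was the only gain among the members in the 3 bands.

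**Figure D3:**
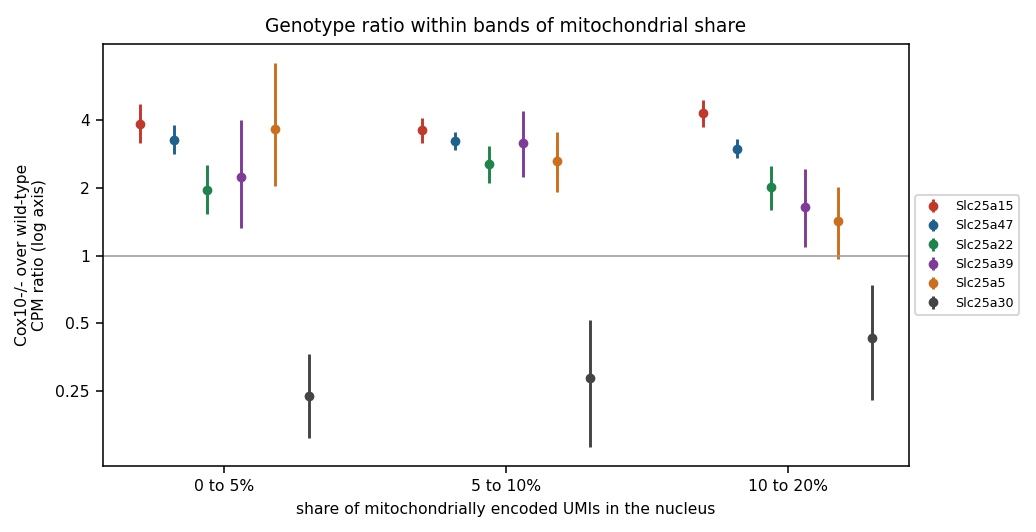
Cox10-/- over wild-type CPM ratio (log axis, 95% intervals) of the 6 called members within bands of the mitochondrially encoded share, over all deposited hepatocyte-like nuclei without the shallow cluster. Slc25a15 and Slc25a47 stay near 4 and 3 in all bands, whereas Slc25a5 is at 3.65 in the lowest and 1.42 in the highest.

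RNA released from broken cells can enter any droplet, so levels in the other named nuclei of each library were read beside these ratios, from all deposited nuclei (149 wild-type and 3172 Cox10-/-). Slc25a15 was at 74.0 CPM in wild-type and 132 CPM in Cox10-/- other nuclei, and Slc25a47 at 184 and 387 CPM, so both also stood higher outside hepatocyte-like nuclei. Slc25a5 was at 40.6 and 112 CPM there and Slc25a39 at 19.1 and 76.6 CPM. In the Cox10-/- library these 2 were not higher in hepatocyte-like nuclei, which held 66.8 CPM of Slc25a5 and 55.7 CPM of Slc25a39 without the shallow cluster. Slc25a22 was at 35.8 CPM in wild-type and 43.4 CPM in Cox10-/- other nuclei. Slc25a30 was at 57.3 and 29.3 CPM there, so it also stood lower in Cox10-/- outside hepatocyte-like nuclei. Wild-type hepatocyte-like nuclei held 62.4 CPM of Slc25a30, near the level of the other nuclei. The part of free RNA in these genotype ratios was not tested. The wild-type figures rest on 17 UMIs for Slc25a5, 8 for Slc25a39, 15 for Slc25a22 and 24 for Slc25a30.

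The second comparison asked which carriers marked hepatocyte-like nuclei among the liver's cell types. It was made in the Cox10-/- library, as wild-type held few other nuclei. The clusters were drawn from all genes, so these levels are a description. Against endothelial-like nuclei 13 of 38 measured members were at least 2-fold higher in hepatocyte-like nuclei (background 14.4% of all genes) and 2 lower (17.3%). Against stellate-like nuclei the counts were 15 and 2 of 38 (15.7% in both directions), and against myeloid-like nuclei 12 and 1 of 37 (11.7% and 17.6%). In each comparison the share of members higher was above the background and the share lower was below it.

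Against all 3 types 11 members were higher: Slc25a13, Slc25a15, Slc25a20, Slc25a21, Slc25a22, Slc25a23, Slc25a25, Slc25a32, Slc25a42, Slc25a47 and Slc25a51. Without the shallow cluster the same 11 were. How many of all genes were higher against all 3 types at once was not counted, so this count of 11 has no background beside it. Slc25a21 had the largest ratios, at 617 CPM in hepatocyte-like nuclei against 53.7, 51.9 and 62.6 CPM in endothelial-like, stellate-like and myeloid-like nuclei. Slc25a13 was at 1677 CPM against 229, 171 and 222 CPM. Slc25a51 was at 448 CPM against 76.6, 53.1 and 104 CPM, and its ratio to stellate-like nuclei was 8.44 (6.84 to 10.54). Slc25a47 was separated less, at 972 against 393 CPM in endothelial-like nuclei, a ratio of 2.48 (2.29 to 2.68).

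Some members were nearly missing from hepatocyte-like nuclei. Slc25a36, a pyrimidine nucleotide carrier like Slc25a33, was at 2.16 CPM (9 UMIs) in Cox10-/- hepatocyte-like nuclei and at 67.1, 78.1 and 130 CPM in endothelial-like, stellate-like and myeloid-like nuclei. It was 31.1-fold, 36.2-fold and 60.4-fold lower, and over all deposited wild-type nuclei it was at 0.768 CPM in hepatocyte-like and 45.4 CPM (19 UMIs) in other named nuclei. Slc25a33 ran the other way, at 102 CPM in hepatocyte-like nuclei against 24.4, 50.7 and 54.6 CPM. It was called higher against endothelial-like and stellate-like nuclei but not against myeloid-like nuclei, at 1.88 (1.36 to 2.65), nor against other nuclei in wild-type, at 1.69 (1.05 to 2.91).

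Among ADP/ATP carriers, Slc25a5 was called in no direction, at 90.9 CPM in hepatocyte-like nuclei against 121, 99.1 and 109 CPM in endothelial-like, stellate-like and myeloid-like nuclei. Slc25a4 was at 0.960 CPM in hepatocyte-like nuclei and at 7.46, 16.3 and 16.0 CPM in endothelial-like, stellate-like and myeloid-like nuclei, and was called against stellate-like nuclei only, the others having too few UMIs. Slc25a24 was at 0.240 CPM against 12.9, 6.998 and 7.99 CPM and was called against endothelial-like nuclei, whereas Slc25a25 was at 420 CPM against 91.5, 68.8 and 118 CPM. Slc25a43 had 0 UMIs in hepatocyte-like nuclei, which allows up to 0.720 CPM, and also 0 in endothelial-like nuclei, which allows up to 1.49 CPM. It was at 11.1 CPM in stellate-like and 9.32 CPM in myeloid-like nuclei. Mitoferrin 1 (Slc25a37) was at 81.0 CPM in endothelial-like, 40.8 CPM in hepatocyte-like and 14.0 CPM in stellate-like nuclei.

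In the wild-type library 3 of 39 measured members (Slc25a13, Slc25a22 and Slc25a51) were higher in hepatocyte-like than in other named nuclei, where 1.13% of all genes were, and Slc25a36 was lower, as were 8.77% of all genes. In the Cox10-/- library, compared in the same way over all deposited nuclei, 14 of 41 were higher (11.2%) and 5 lower (26%). Slc25a21 was 1.61-fold higher in wild-type and 7.53-fold higher in Cox10-/- hepatocyte-like nuclei than in other nuclei of the same library. Its level in the other nuclei was 329 CPM in wild-type and 85.7 CPM in Cox10-/-, and the part of free hepatocyte RNA in these levels was not tested.

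The unnamed cluster led by Areg and Nrg1 had its own carrier levels. Against hepatocyte-like nuclei without the shallow cluster, 1 of 36 members was higher there (8.61% of all genes) and 5 were lower (5.07%). Slc25a30 was 9.76-fold higher (6.81 to 14.03). Slc25a51 was 7.98-fold lower, Slc25a15 5.28-fold, Slc25a13 2.46-fold, Slc25a32 2.37-fold and Slc25a25 2.002-fold. The Slc25a36 count was 0 of 445056 UMIs, which allows up to 6.74 CPM, below the levels of endothelial-like, stellate-like and myeloid-like nuclei. Slc25a24 went the other way, at 24.7 CPM (12.3 to 44.2, 11 UMIs) against 1 UMI in the hepatocyte-like nuclei, a ratio of 89.2 (13.0 to 3841) on too few UMIs to be measured. Slc25a4 and Slc25a43 had 2 UMIs each there.

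**Figure D4:**
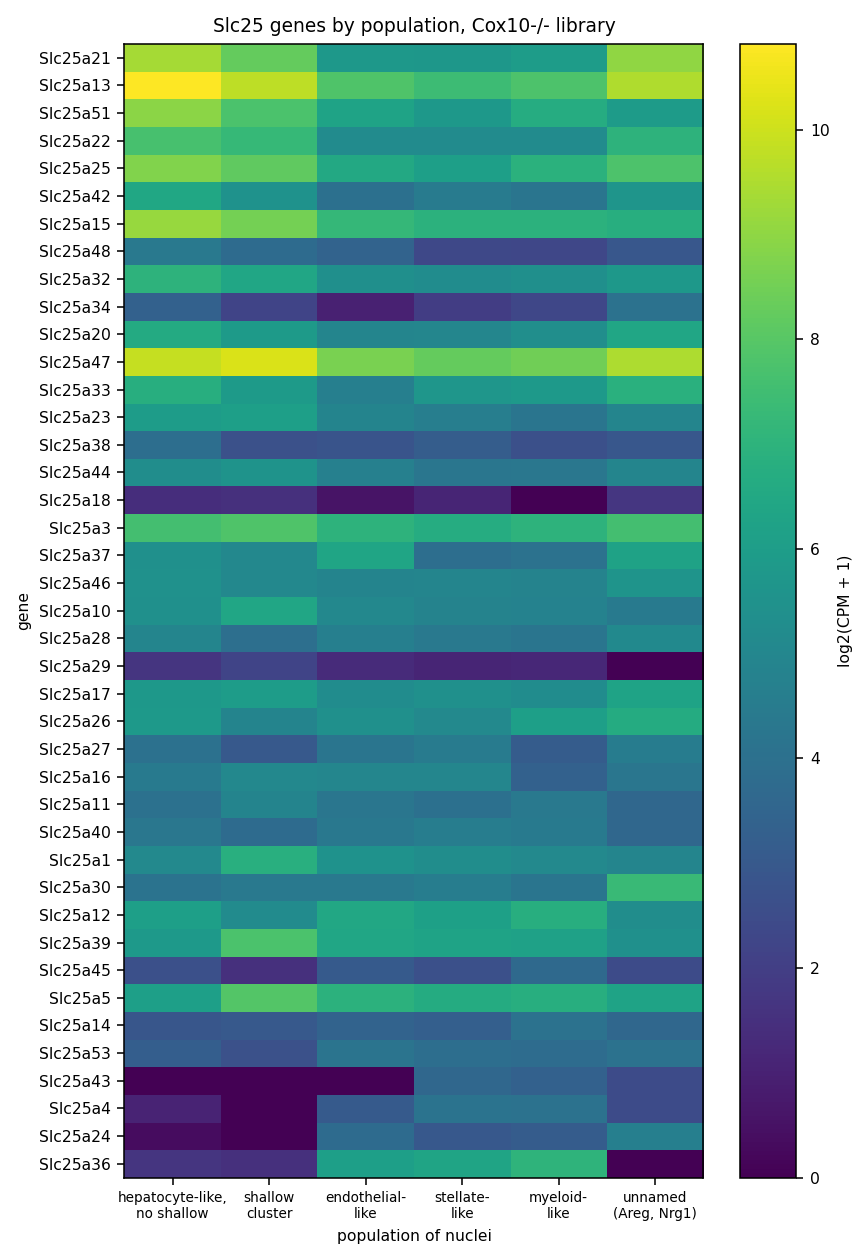
Level of 41 of the 42 members (log2 of CPM + 1, colour scale) by population of nuclei in the Cox10-/- library, with the shallow cluster apart, ordered by the difference between hepatocyte-like nuclei and the mean of endothelial-like, stellate-like and myeloid-like nuclei. Slc25a21, Slc25a13 and Slc25a51 lie at the hepatocyte-like end and Slc25a36, Slc25a24, Slc25a4 and Slc25a43 at the other.

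The last comparison asked whether carriers followed the liver's zones, from the portal vein to the central vein. Nuclei were ordered by pericentral against periportal marker genes, and split into 3 bins of equal size, of which the outer ones were compared within each library. A bin is a range of this score and not a cell type, and 281 of 1125 scored Cox10-/- nuclei lay within 0.5 (log2) of the limit between the periportal and middle bins and 365 within 0.5 of the limit between the middle and pericentral bins. The limits were set within each library, at -2 and -0.848 in wild-type and -1.58 and -0.415 in Cox10-/-, so a bin does not cover the same scores in both. A member was called at 1.5-fold with an interval that excluded 1. Markers kept out of the score followed it in part: pericentral markers were called pericentral for 7 of 7 measured in wild-type, 7 of 8 in Cox10-/- and 4 of 7 in Cox10-/- without the shallow cluster. Of 8 periportal markers, 4 were called periportal in each. In wild-type 2 of 36 members were periportal (background 3.29%) and 1 pericentral (3.05%). In Cox10-/- 2 of 33 were periportal (4.57%) and 3 pericentral (7.12%), and without the shallow cluster 3 and 3 of 32 (3.54% and 5.04%).

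Slc25a51 was periportal in both libraries. In wild-type it fell from 364 CPM in the periportal bin through 326 to 219 CPM in the pericentral bin, a ratio of 1.66 (1.49 to 1.86). In Cox10-/- it fell from 622 through 386 to 235 CPM, a ratio of 2.65 (2.31 to 3.04), which was 2.52 without the shallow cluster. With 2 bins in place of 3, the wild-type ratio was 1.48 and the gene was not called there. Across bins of unlike score range, the Cox10-/- over wild-type ratio of Slc25a51 was 1.71 (1.56 to 1.87) in the periportal bin and 1.07 (0.920 to 1.25) in the pericentral bin, or 1.83 and 1.21 without the shallow cluster.

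Slc25a21 was pericentral in both libraries. It stood at 493, 609 and 788 CPM from the periportal to the pericentral bin in wild-type, 1.60-fold higher in the pericentral bin (1.48 to 1.72). In Cox10-/- it stood at 477, 622 and 858 CPM, 1.80-fold higher (1.64 to 1.97), or 2.22-fold without the shallow cluster. With 2 bins the wild-type value was 1.41-fold, and with the mean over nuclei the Cox10-/- value was 1.35-fold, and neither was called. Slc25a51 and Slc25a21 were thus graded in opposite directions across the same nuclei.

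Slc25a22 was 1.59-fold higher (1.35 to 1.87) in the pericentral bin of Cox10-/- nuclei, at 164, 186 and 261 CPM, and 1.43-fold higher (1.17 to 1.75), short of the call, in wild-type. The Cox10-/- call was lost with 2 bins (1.47), the mean over nuclei (1.23) and all deposited nuclei (1.34). Slc25a12 was periportal in Cox10-/-, at 80.3 against 39.9 CPM, a ratio of 2.01 (1.43 to 2.89), and had 1.31 (1.06 to 1.61) in wild-type. Slc25a30 was 1.82-fold higher (1.01 to 3.26) in the pericentral bin of Cox10-/- on 25 and 27 UMIs and stood at 60.8 and 61.9 CPM in the outer bins of wild-type, and with the mean over nuclei its Cox10-/- value was 1.35-fold and not called. Slc25a27 was periportal in wild-type, at 21.6 against 12.3 CPM, but not with all deposited nuclei (1.36), and in Cox10-/- it had 1.23 with an interval that included 1, or 2.04 and a call with the mean over nuclei. Slc25a16 was not called in Cox10-/- at 1.61 (0.905 to 2.995), but was periportal without the shallow cluster, at 2.30 (1.19 to 4.73), with 2 bins and with all deposited nuclei. None of these differences between libraries was tested.

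Slc25a47 varied little across zones, at 291, 304 and 303 CPM in wild-type and 948, 996 and 969 CPM in Cox10-/-, and its genotype ratio was 3.26, 3.28 and 3.196 in the 3 bins, whose score ranges differ between the libraries. Slc25a15 had genotype ratios of 4.55 (3.99 to 5.19) in the periportal, 3.68 in the middle and 3.10 (2.71 to 3.54) in the pericentral bin. Slc25a30 was lower in Cox10-/- in every bin, by 4.51-fold, 4.19-fold and 2.53-fold. The pericentral bin of Cox10-/- was shallow, with a median of 1598 UMIs against 4408 in the periportal bin (3887 and 5027 without the shallow cluster), and the part of depth in these gradients was not tested.

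**Figure D5:**
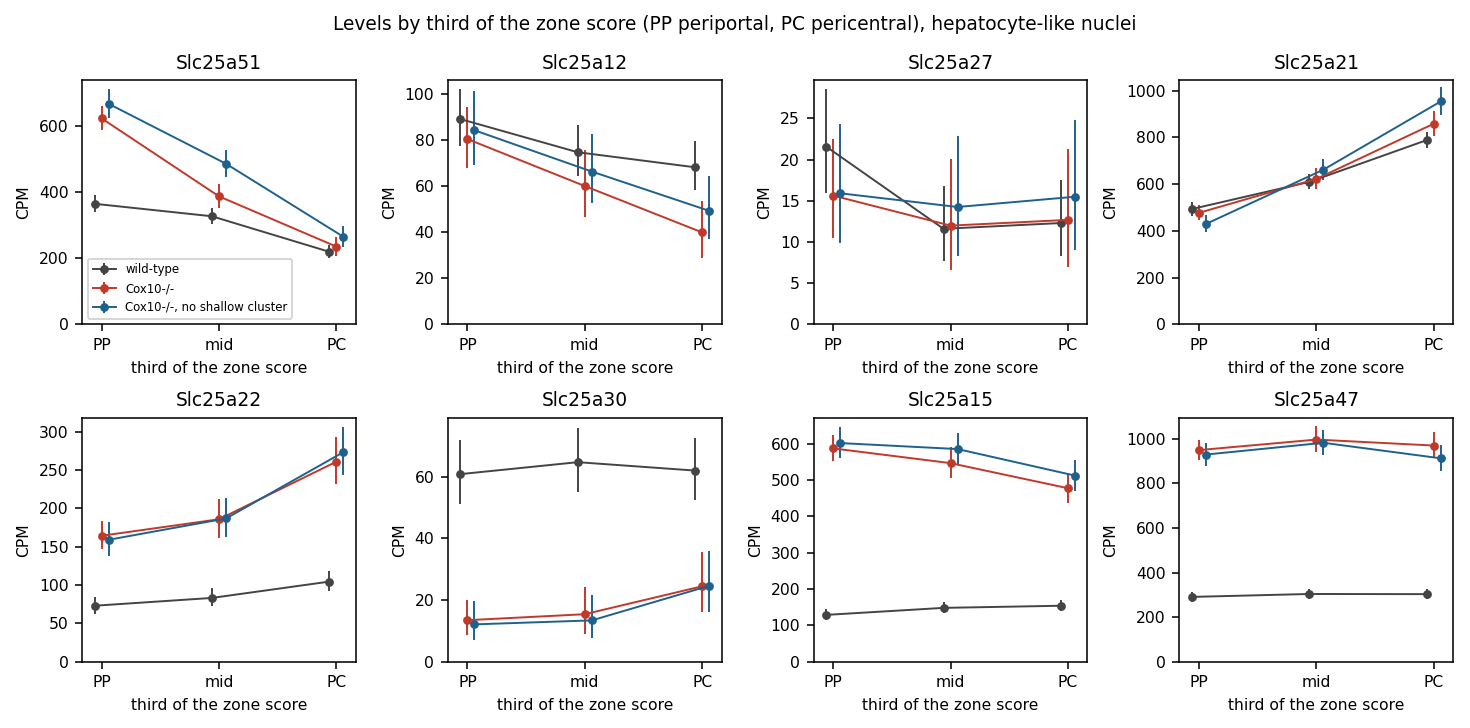
CPM of 8 members in the periportal (PP), middle and pericentral (PC) bins of the zone score for wild-type, Cox10-/- and Cox10-/- without the shallow cluster (bars are exact Poisson 95% intervals). Slc25a51 falls from PP to PC and Slc25a21 rises in all 3 lines, and Slc25a47 stays between 291 and 304 CPM in wild-type.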

How the data were processed

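Single-nucleus RNA counts from 2 livers, 1 per genotype, were analysed. Per the submitters' processing notes, Cell Ranger 7.0 and mm10 were used; the sources used here do not give strand use, intronic counting or annotation. The authors deposited raw counts of UMIs per gene and nucleus, with no normalization, and the table already held only nuclei with 601 to 3999 genes and under 20% mitochondrially encoded UMIs. It totals 17703804 UMIs in wild-type and 14476400 in Cox10-/-. Overlapping and antisense genes therefore stay uncertain, among them Slc25a11 with Rnf167, Slc25a18 with Atp6v1e1 and Slc25a26 with Lrig1.

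The filter required 500 UMIs, 300 genes and a mitochondrially encoded share no higher than 10%. Scrublet called 13 doublets in Cox10-/- (0.252%) and 0 in wild-type. Whether the caller worked at so low a rate was not tested. Those 13 were removed, and doublets may remain. Counts were scaled to 10000, logged and clustered in scanpy 1.11.5 (2000 variable genes, scaled to at most 10, 30 components, 15 neighbours, Leiden resolution 1.0, seed 1, no integration), which gave 18 clusters. Classes other than hepatocyte were named from a marker excess on the log2 scale of 2 or more, at least 3 detected markers, every other class under 1 and a leading gene at least 8-fold higher. A hepatocyte-like cluster needed at least 4 of 15 markers at least 2-fold above the named other nuclei and every other class under 1. These thresholds were set after the clusters were seen and replaced an earlier version that left many wild-type nuclei unnamed. With them 0.0649% of wild-type and 5.63% of Cox10-/- nuclei stayed unnamed, 2.88% of Cox10-/- nuclei in the cluster led by Areg and Nrg1.

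UMIs were summed over nuclei to give CPM, with exact Poisson intervals and conditional binomial intervals for ratios at 95% (scipy 1.17.1); log2 ratios used a prior of 0.5 UMI, and a count of 0 a limit of 3 counts. A gene was measured when the compared sums together held 20 or more UMIs. For zones, nuclei with at least 1000 UMIs were thinned to 1000 for the score, and unthinned UMIs were summed. The ratio intervals and calls were tried on simulated Poisson counts with planted ratios. That trial held no spread between animals, clustering, naming of clusters, zone score or free RNA. Alternatives included edgeR 4.0.16 TMM and DESeq2 1.42.0 size factors, used for scaling only. Values are given for members past the limits, and for up to 4 further members of each role group with most UMIs; other members were named beside their group. The values of 1 member are not reported here, although counts over members include it. Members, lists and comparisons were chosen with earlier results of these data known. Coordinates come from GENCODE vM21, and promoter sequences from RefSeq (GRCm38.p6).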

Additional observations from a re-analysis of the deposited data

Results flagged for a closer look

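Slc25a15 ran in opposite directions across zones in the 2 libraries. Its periportal over pericentral ratio was 0.837 (0.716 to 0.978) in wild-type and 1.23 (1.11 to 1.37) in Cox10-/-, and 1.17 (1.05 to 1.31) in Cox10-/- without the shallow cluster. Neither gradient reached 1.5-fold, and the difference between the libraries was not tested.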

How the results depend on the processing

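No paired analysis was possible because each genotype had 1 library, and no library could be left out. In hepatocyte-like nuclei the count of members higher was between 3 and 6 over 14 alternatives, and the count lower was 1 or 2. It was 3 higher with all deposited nuclei and no shallow cluster, where Slc25a5 and Slc25a39 lost the call. With the mean over nuclei it was 6 higher, where Slc25a1 was added at 2.39, and 2 lower, where Slc25a38 was added. The member median, -0.04 on the log2 scale, turned positive in 6 alternatives: 0.06 with all deposited nuclei, 0.02 without the shallow cluster, 0.02 with the mean over nuclei, 0.13 with at least 100 UMIs, 0.12 with all deposited nuclei and no shallow cluster, and 0.03 with 3 hepatocyte markers needed. The mean over nuclei put the median of all genes at -0.12. For lineages, members lower in hepatocyte-like nuclei became 4 against endothelial-like and 5 against myeloid-like nuclei with all deposited nuclei, and 2 against myeloid-like nuclei with the mean over nuclei. For zones, wild-type periportal members became 1 with all deposited nuclei and 1 with 2 bins of the score in place of 3, wild-type pericentral members 0 with 2 bins, where Slc25a21 lost its call, and Cox10-/- periportal members 5 with the mean over nuclei. The causes were not tested. Depth limits the least counted members: Slc25a4, Slc25a24, Slc25a36 and Slc25a43 had too few hepatocyte UMIs for a genotype ratio.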
